A study of Mus musculus with 11 samples.

Results

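The small heat shock proteins of skeletal muscle and their co-chaperone Bag3 were followed in the gastrocnemius, a calf muscle made mostly of fast fibres, of mice that had lost Raptor, or Raptor and mTOR, from muscle in adult life. The group held 8 listed genes matched by symbol, Cryab, Hspb1, Hspb2, Hspb3, Hspb6, Hspb7, Hspb8 and Bag3, of 55487 genes in the deposited tables. All 8 passed the filter on low counts that left 10505 genes for testing. Raptor (gene symbol Rptor) is the subunit that defines mTOR complex 1, and the kinase mTOR (Mtor) is part of mTOR complexes 1 and 2.

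RNA of 11 mice was measured with the QuantSeq 3' mRNA FWD kit, which yields reads near the 3' end of polyadenylated transcripts. The groups were 4 wild-type mice, 3 mice with a Raptor knockout made from floxed Raptor alleles (HSA-Cre-Raptor fl/fl), and 4 double knockouts made by crossing these with mTOR fl/fl mice. The human skeletal actin promoter drove a Cre joined to a mutant domain of the oestrogen receptor, so recombination was directed to myofibres and not to the other cells of the muscle. All 3 groups, wild type included, were labelled as treated with tamoxifen, given from 3 months of age in chow for 7 weeks, with muscles taken 7 months after it began. Whether the wild-type mice carried Cre or a floxed allele, and how the mice were related, could not be learned from the labels, so p-values measure only the spread between these samples.

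Small heat shock proteins are chaperones that bind unfolding proteins without using ATP and hold them in a state from which they can be refolded or degraded. In striated muscle they associate with desmin filaments, titin and the Z-disc, the structures that bear load in each contraction. Bag3 links small heat shock proteins, above all Hspb8, to Hsp70 chaperones, and this assembly sends damaged Z-disc proteins such as filamin C to autophagy. mTOR complex 1 is a general inhibitor of autophagy, and heat shock factor 1 is a transcription factor that can switch on several of these chaperone genes.

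By edgeR's quasi-likelihood test, 5 of the 8 genes were higher in the double knockout than in wild type, where 13.0% of all tested genes were higher. Against the same controls 5 of the 8 were higher in the Raptor knockout, where 8.73% of all tested genes were. Cryab, Hspb3, Hspb6 and Hspb8 rose in both comparisons. Hspb1 passed the test in the double knockout and missed it in the Raptor knockout, Hspb7 the reverse, and Bag3 and Hspb2 missed it in both. None of the 8 was called between the knockouts, where 0.00952% of tested genes were called higher and 0.019% lower. The 4 wild-type libraries serve both of these comparisons, so the results are not independent of each other. In the 7 libraries without Xist, a transcript of female tissue, 0 of the 5 double-knockout calls and 3 of the 5 Raptor-knockout calls remained.

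The promoters are shown for some of the members that rose, to set sequences with a heat shock element beside one without. RefSeq promoter sequence of build GRCm38.p6 was matched for 6 of the 8 genes, with 2 start sites for Hspb6, and Cryab and Hspb2 were not matched. In the 250 bases before each start, a heat shock element of 2 units was searched for as GAANNTTC or TTCNNGAA, each of which reads the same on both strands. It was found at 3 of the 6 genes, and among all promoters of that length 12.8% held it (14.5% of genes). No member held the element of 3 units, which adds another unit to either form and which 0.466% of promoters held, each of them counted in the form of 2 units as well. Capitals mark the element of 2 units, and every sequence reads 5′ to 3′ on the gene's own strand and lies before the start site. Hspb1 (chr5:135887669-135887918, plus strand) held it at -117 and -97, Hspb6 (chr7:30553051-30553267, plus strand, the downstream of its starts, with the window ended early) at -120, and Hspb3 (chr13:113663677-113663926, minus strand) at -224. Hspb8 (chr5:116422865-116423114, minus strand) had no match in this window, which says only that these letters are not in it. Hspb7, called higher in the Raptor knockout, and Bag3 had no match either, and their sequences are not printed.
Hspb1: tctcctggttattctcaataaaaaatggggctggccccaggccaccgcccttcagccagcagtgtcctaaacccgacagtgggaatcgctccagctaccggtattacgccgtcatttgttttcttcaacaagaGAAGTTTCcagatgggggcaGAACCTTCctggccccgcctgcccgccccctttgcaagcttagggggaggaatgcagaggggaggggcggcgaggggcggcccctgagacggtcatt
Hspb6: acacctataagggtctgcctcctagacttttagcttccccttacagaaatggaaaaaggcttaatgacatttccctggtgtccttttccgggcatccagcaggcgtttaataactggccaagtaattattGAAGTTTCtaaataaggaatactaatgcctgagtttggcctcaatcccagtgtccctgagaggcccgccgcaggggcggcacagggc
Hspb3: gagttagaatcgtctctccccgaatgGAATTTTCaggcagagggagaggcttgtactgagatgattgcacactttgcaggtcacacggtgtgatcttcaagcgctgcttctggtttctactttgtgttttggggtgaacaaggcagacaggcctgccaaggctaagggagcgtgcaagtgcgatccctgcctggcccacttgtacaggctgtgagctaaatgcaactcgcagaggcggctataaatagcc
Hspb8: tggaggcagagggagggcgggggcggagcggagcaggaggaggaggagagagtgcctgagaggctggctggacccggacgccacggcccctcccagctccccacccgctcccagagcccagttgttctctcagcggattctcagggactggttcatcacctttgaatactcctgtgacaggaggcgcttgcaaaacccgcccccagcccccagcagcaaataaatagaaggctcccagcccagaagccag
A TATA box, searched on the gene's strand as TATAAA, lay at -11 in Hspb3. In Hspb6 it lay at -29 from the RefSeq start, beyond the end of the sequence printed here, and 7.59% of promoters held one. These matches are descriptions of the letters, and no binding was measured.

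Levels below are CPM, counts relative to library size, scaled by TMM, a normalization that aligns the bulk of genes between libraries, and means are given with the SD over the libraries of a group. Comparisons of levels between genes use the deposited TPM, which divides by transcript length. On the TPM scale the order of mean levels was the same in all 3 groups: Cryab, Hspb1, Hspb6, Hspb8, Hspb2, Hspb3, Bag3 and Hspb7. In wild type the mean was 1729 TPM for Cryab, 543 for Hspb1, 498 for Hspb6 and 225 for Hspb8. The other 4 were far lower, with 72.1 TPM for Hspb2, 26.5 for Hspb3, 26.4 for Bag3 and 2.21 for Hspb7. The neighbours Hspb1 and Hspb6 had overlapping ranges in every group, and Hspb3 and Bag3 overlapped in wild type and in the double knockout but not in the Raptor knockout. Because 3' tags do not grow in number with transcript length, the division by length in TPM can itself move this order: by CPM, Hspb6 stood above Hspb1 in every group. Bag3 likewise stood above Hspb2 and Hspb3 by CPM in every group, with wild-type means of 77.2, 40.6 and 22.0 CPM. In the Raptor knockout Hspb8 (1020 CPM) also stood above Hspb1 (874 CPM).

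**Figure D1:**
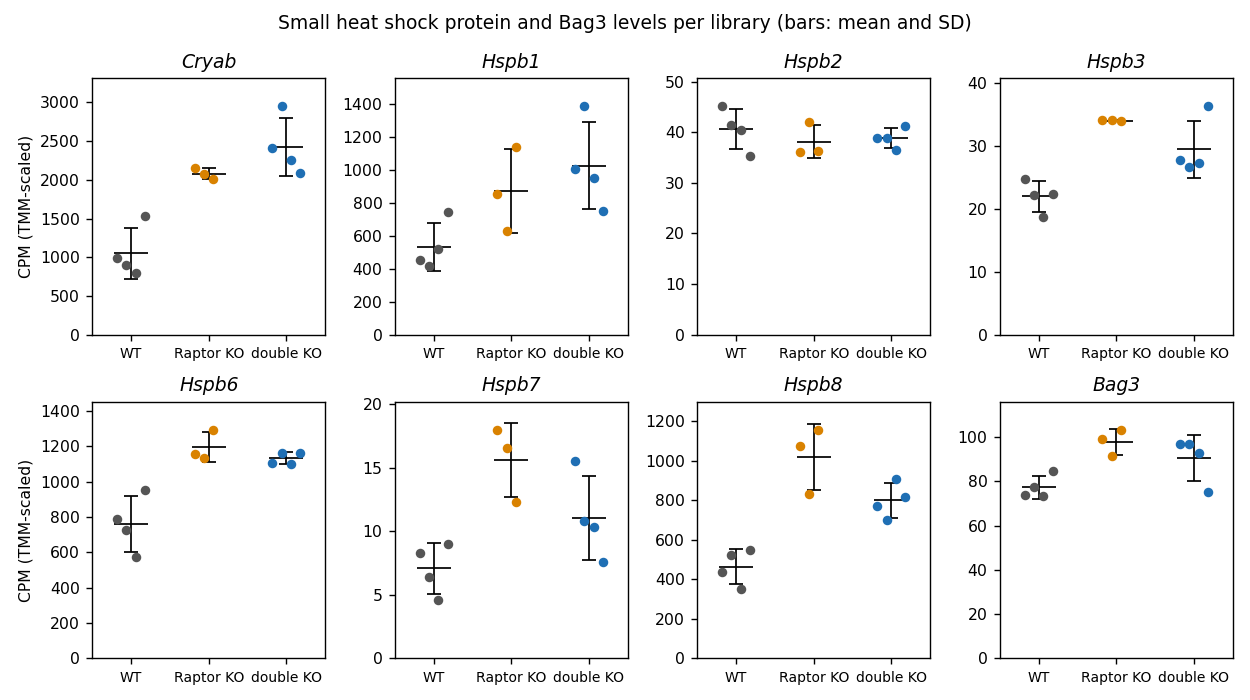
Level of each of the 8 genes in each of the 11 libraries, in CPM on linear axes from 0, by group, with the mean and SD. Cryab, Hspb3, Hspb6 and Hspb8 of both knockouts lie above all wild-type libraries, while the Hspb2 libraries of all groups lie between 35.4 and 45.1 CPM.

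A call is an adjusted p under 0.05 from edgeR's quasi-likelihood test, adjusted by the Benjamini-Hochberg method over all 10505 tested genes. In the double knockout against wild type, the 5 genes called higher stood beside 0 called lower, where 13.7% of all tested genes were called lower. The groups did not overlap for the same number of genes, 5, all higher in the double knockout, against 13.1% of tested genes higher and 13.6% lower. The median log2 fold change of the 8 was 0.61, beside 0.02 over all tested genes. In the Raptor knockout against wild type, the 5 called higher again stood beside 0 lower, where 9.43% of all tested genes were lower. There the groups did not overlap for 6 genes, all higher in the knockout, against 14.0% of tested genes higher and 13.2% lower, and the median was 0.68 beside 0.00 over all.

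Cryab (ENSMUSG00000032060), which encodes alpha-B-crystallin, the chaperone of desmin and titin and the most abundant of the set, was about doubled in both knockouts. The wild-type libraries stood at 992, 896, 793 and 1530.3 CPM (replicates 1 to 4). The Raptor knockout libraries stood at 2150.3, 2079 and 2008 CPM, and the double knockout libraries at 2405, 2946, 2252 and 2087. Every knockout library lay above every wild-type library, and wild-type replicate 4 was the nearest to them. The level was 2.30-fold that of wild type in the double knockout (log2 fold change 1.20, SE 0.18, edgeR adjusted p = 0.000115, n = 4 and 4). The Raptor knockout stood at 1.97-fold (log2 fold change 0.98, SE 0.19, edgeR adjusted p = 0.00179, n = 3 and 4).

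Hspb6 (ENSMUSG00000036854, GRCm38 chromosome 7, 30552178 to 30555443, plus strand), also called Hsp20, is a partner of Bag3 that is phosphorylated by protein kinase A, and it rose in both knockouts with little spread. Wild type gave 786, 729, 574 and 951 CPM, the Raptor knockout 1159, 1136 and 1290.4, and the double knockout 1107, 1164, 1099.6 and 1161. No knockout library reached down into the wild-type range, and the 4 double knockout libraries spanned only 1099.6 to 1164 CPM. The rise was 1.49-fold in the double knockout (log2 0.58, SE 0.14, edgeR adjusted p = 0.00504) and 1.57-fold in the Raptor knockout (log2 0.65, SE 0.15, edgeR adjusted p = 0.0051).

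Hspb1 (ENSMUSG00000004951, GRCm38 chromosome 5, 135887919 to 135889563, plus strand), also called Hsp25 in mice and Hsp27 in humans, binds actin and intermediate filaments and forms mixed oligomers with Cryab and Hspb6. It stood at 454, 415, 521 and 742 CPM in wild type, at 853, 629 and 1140.1 in the Raptor knockout, and at 1008, 1386, 954 and 752 in the double knockout. Wild-type replicate 4 lay above Raptor-knockout replicate 2 and just under double-knockout replicate 4. The double knockout passed the test (1.92-fold, log2 0.94, SE 0.23, edgeR adjusted p = 0.00826), and the Raptor knockout did not (1.64-fold, log2 0.71, SE 0.24, edgeR adjusted p = 0.0599). In 9 of 23 alternatives the Raptor knockout was called too, with an adjusted p by edgeR, DESeq2 or limma from 0.021 to 0.263 over them. The difference between the knockouts was itself small against its error (log2 0.23, 95% interval -0.30 to 0.76), so the 2 knockouts were not shown to differ in Hspb1.

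Hspb8 (ENSMUSG00000041548, GRCm38 chromosome 5, 116408491 to 116422864, minus strand), the small heat shock protein that pairs with Bag3, had the smallest error relative to its change among the Raptor-knockout results. Wild type gave 437, 521, 352 and 546 CPM, the Raptor knockout 1072, 833 and 1154, and the double knockout 772, 698, 906 and 818. All 7 knockout libraries lay above all 4 wild-type libraries, and the Raptor and double knockout ranges overlapped. The rise was 2.20-fold in the Raptor knockout (log2 1.14, SE 0.16, edgeR adjusted p = 0.000175) and 1.72-fold in the double knockout (log2 0.78, SE 0.15, edgeR adjusted p = 0.00117).

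Bag3 (ENSMUSG00000030847, GRCm38 chromosome 7, 128523616 to 128546981, plus strand), its partner, was not called in either comparison. Its libraries stood at 73.6, 77.2, 73.4 and 84.8 CPM in wild type, at 99.2, 91.5 and 103 in the Raptor knockout, and at 96.7, 97.0, 92.8 and 74.98 in the double knockout. The Raptor knockout did not overlap wild type, but the difference missed the threshold (1.27-fold, log2 0.34, SE 0.13, edgeR adjusted p = 0.0906). In the double knockout 3 libraries lay above wild type and replicate 4 lay within it (1.17-fold, log2 0.23, SE 0.13, 95% interval -0.04 to 0.49, edgeR adjusted p = 0.201). Scaling by library totals, or limma on the deposited TPM of genes with a mean of at least 1 TPM, called Bag3 higher in both comparisons. Library totals also moved the median log2 fold change of all genes up, by 0.228 in the double knockout and 0.197 in the Raptor knockout. They called 2421 and 1638 of the 10505 tested genes higher, against 1367 and 917 with TMM. With log2 of TPM plus 1 the medians moved up by 0.123 and 0.0904. The part of this general shift in the Bag3 calls was not tested.

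Hspb3 and Hspb7 are muscle-restricted members of low level here. Hspb3 (ENSMUSG00000051456, GRCm38 chromosome 13, 113662896 to 113663676, minus strand), which forms a complex with Hspb2, stood at 24.9, 22.2, 18.8 and 22.3 CPM in wild type. The Raptor knockout gave 34.1, 34.1 and 34.0 CPM, and the double knockout 27.8, 26.7, 27.3 and 36.3. Both knockouts lay above wild type in every library, and double-knockout replicate 4 stood apart from the other 3. The rise was 1.55-fold in the Raptor knockout (log2 0.63, SE 0.16, edgeR adjusted p = 0.0122) and 1.34-fold in the double knockout (log2 0.43, SE 0.15, edgeR adjusted p = 0.0483). The double-knockout call held in only 8 of 23 alternative analyses, with an adjusted p up to 0.262.

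Hspb7 (ENSMUSG00000006221, GRCm38 chromosome 4, 141420779 to 141425311, plus strand), the cardiovascular small heat shock protein, known for suppressing aggregation and for binding filamin C, rested on 18 to 70 counts per library. Wild type gave 8.28, 6.44, 4.61 and 9.02 CPM, the Raptor knockout 17.9, 16.5 and 12.3, and the double knockout 15.5, 10.8, 10.3 and 7.56. The Raptor knockout lay wholly above wild type (2.22-fold, log2 1.15, SE 0.27, edgeR adjusted p = 0.00682). In the double knockout, replicate 4 lay within the wild-type range and the difference missed the threshold (log2 0.64, SE 0.26, 95% interval 0.09 to 1.19 without adjustment, edgeR adjusted p = 0.0792). It was called in 4 of 23 alternatives, with an adjusted p by edgeR, DESeq2 or limma from 0.0175 to 0.926. Counting error alone was wide at this depth: exact Poisson 95% intervals ran from 3.06 to 6.66 CPM in wild-type replicate 3 and from 14.0 to 22.7 CPM in Raptor-knockout replicate 1.

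Hspb2 (ENSMUSG00000038086), which binds the myotonic dystrophy kinase and lies beside Cryab, showed no detectable difference. It stood at 45.1, 41.5, 40.5 and 35.4 CPM in wild type, at 36.2, 42.0 and 36.4 in the Raptor knockout, and at 38.9, 38.8, 36.6 and 41.3 in the double knockout. All 3 ranges overlapped. The log2 difference from wild type was -0.06 in the double knockout (SE 0.13, 95% interval -0.34 to 0.22) and -0.09 in the Raptor knockout (SE 0.14, 95% interval -0.39 to 0.22), and both signs turned when library totals replaced TMM.

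**Figure D2:**
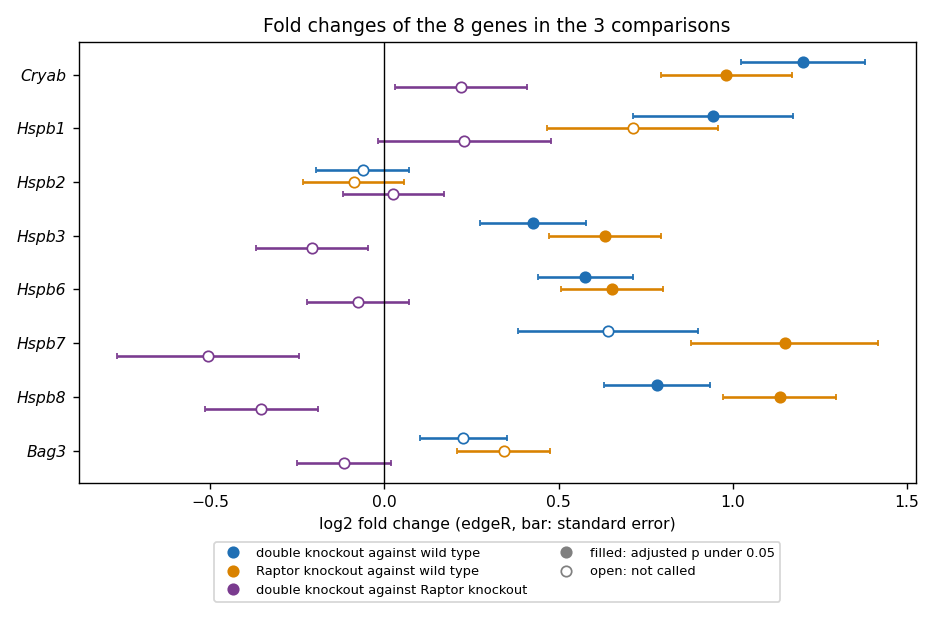
Log2 fold change of each of the 8 genes in each of the 3 comparisons, with a bar of 1 standard error to each side, filled where edgeR's quasi-likelihood test called it. Against wild type Cryab lies at 1.20 and 0.98 and Hspb2 at -0.06 and -0.09, and the double knockout against the Raptor knockout has no call.

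Between the knockouts the quasi-likelihood test of edgeR called 0 of the 8, and the DESeq2 Wald test called 0. Before adjustment 1 gene, Hspb8, was under 0.05 (log2 -0.35, SE 0.16, edgeR adjusted p = 0.513). The libraries of the knockouts overlapped for all 8 genes, where 5.18% of tested genes were wholly higher in the double knockout and 7.03% wholly lower. Hspb7 had the widest interval, at log2 -0.51 (95% interval -1.06 to 0.05), so a lower level in the double knockout by up to that much could not be told from none. For Cryab the interval of the difference was -0.18 to 0.62 on the log2 scale, and for Hspb6 -0.39 to 0.23. A missed threshold does not show that the 2 knockouts had the same levels.

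The 7 small heat shock proteins together made up 0.288 ± 0.0665% of scaled counts in wild type (SD, n = 4), with libraries from 0.230 to 0.384%. They made up 0.526 ± 0.0456% in the Raptor knockout (n = 3), and 0.546 ± 0.0578% in the double knockout (n = 4), with every knockout library at 0.477% or above. Cryab held 36.1 ± 2.67% of this sum in wild type, 39.8 ± 4.13% with Raptor lost and 44.2 ± 2.11% with both lost, and no test was made of these shares. Hspb6 held 26.5%, 22.8% and 20.9% in the same order, and Hspb2 1.47%, 0.733% and 0.719%.

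Cryab and Hspb2 are neighbours on chromosome 9 that lie head to head, a pair known for sharing an upstream region while being expressed at different levels. In GRCm38 with GENCODE M21, Hspb2 spans 50751078 to 50752354 on the minus strand and Cryab 50751325 to 50756636 on the plus strand, so the gene models overlap by 1030 bases. Of 5 coding Cryab transcripts 2 start inside Hspb2, and the annotated 3' ends, where tags fall, are 5558 bases apart. No source used here says whether the counting used strand, so reads in the overlap could not be assigned to one gene or the other with certainty. The same holds for Hspb6, which overlaps Proser3 (122 bases) and Lin37 (3 bases) on the other strand and the miRNA gene Gm38670 (77 bases) on its own, and for Bag3, which overlaps 2610306O10Rik by 612 bases on its own strand.

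Cryab counts per Hspb2 count were 22.0, 21.6, 19.6 and 43.2 in wild type. The Raptor knockout gave 59.5, 49.5 and 55.2, and the double knockout 61.9, 76.0, 61.6 and 50.6. Wild-type replicate 4 stood between the other wild-type libraries and the knockouts, and the knockouts did not overlap wild type. This ratio does not depend on how libraries are scaled, and it was chosen after the values were seen. The ratio was 2.46-fold higher in the double knockout than in wild type (two-sided exact permutation p = 0.0286, the smallest that 4 against 4 allows, and 0.0857 after Benjamini-Hochberg adjustment over 3 comparisons). It was 2.17-fold higher in the Raptor knockout (log2 1.12, exact permutation p = 0.0571, the smallest that 3 against 4 allows, adjusted 0.0857), and the knockouts differed by 0.18 (exact permutation p = 0.286).

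**Figure D3:**
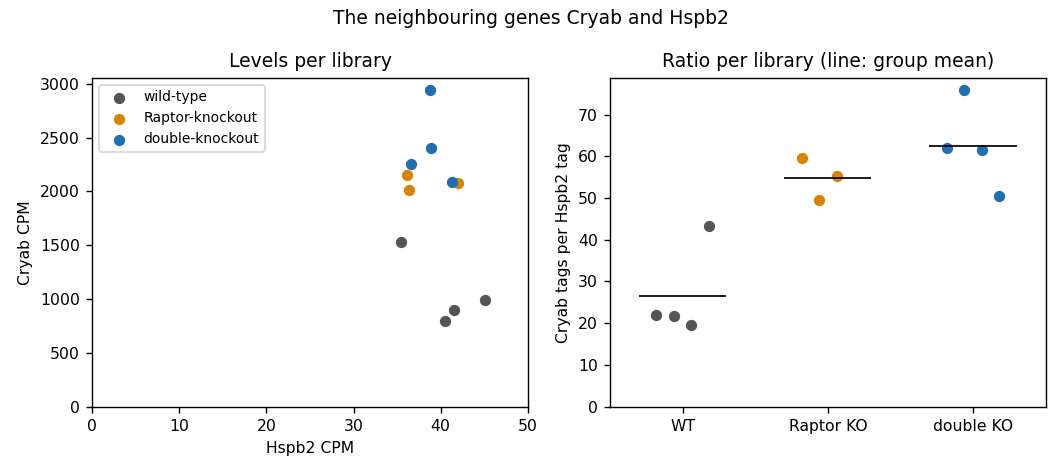
Cryab against Hspb2 in each of the 11 libraries, both in CPM, and their ratio by group with a line at the mean. Hspb2 stays between 35.4 and 45.1 CPM in every library, while the ratio runs from 19.6 to 43.2 in wild type and from 49.5 to 76.0 in the knockouts.

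Within groups some members varied together from library to library and others did not. Wild-type replicate 3 had the lowest level of 6 of the 8 genes among wild-type libraries, and wild-type replicate 4 the highest of 6. In the double knockout, replicate 4 was lowest for 4 genes (Cryab, Hspb1, Hspb7 and Bag3) and highest for 2 (Hspb2 and Hspb3). No Raptor-knockout library was highest or lowest for more than 4 genes. Across the 11 libraries Pearson's r of log2 CPM was 0.93 for Cryab with Hspb6, 0.92 for Hspb6 with Hspb8 and 0.88 for Cryab with Hspb1. Hspb2 had a negative r with each of the other 7 genes, from -0.67 with Bag3 to -0.13 with Hspb3. After the group means were taken out, Cryab and Hspb6 still had an r of 0.79 and Hspb1 and Bag3 of 0.78, and Hspb1 and Hspb2 had -0.74. Hspb3 went with neither Cryab (-0.02) nor Hspb7 (-0.02), and its r was -0.59 with Bag3 and -0.43 with Hspb1. These correlations are descriptions over 11 libraries that share 3 group differences, 2 sequencing runs and the same scaling.

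**Figure D4:**
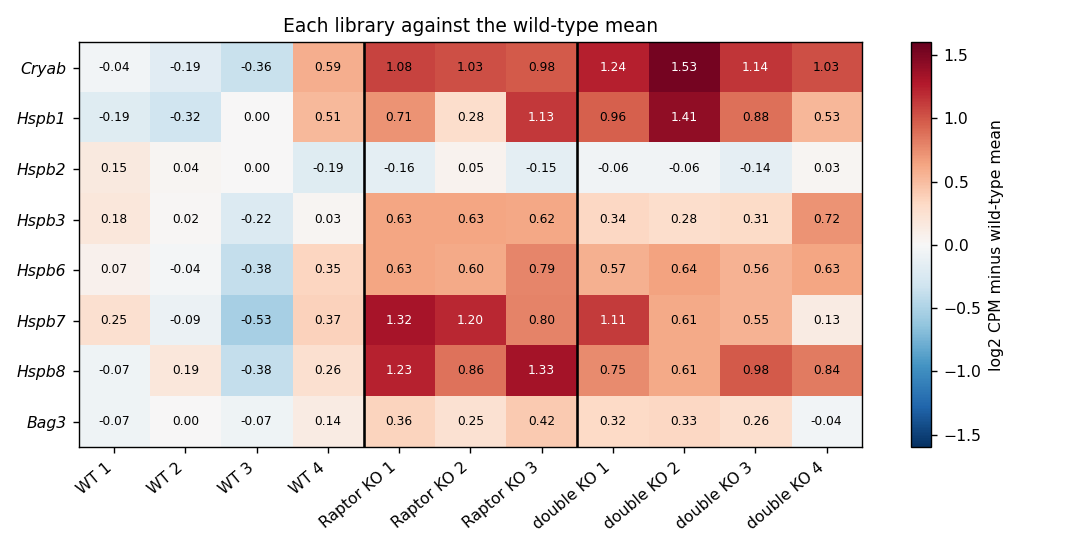
Log2 level of each gene (rows) in each library (columns) minus the wild-type mean of that gene, as colour and value. All genes but Hspb2 and Bag3 are above 0 in all 7 knockout libraries, and Hspb2 stays near 0. Among the wild type, replicate 4 stands out as high and replicate 3 as low for most genes.

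The tested genes whose log2 CPM followed each member most closely across the 11 libraries were listed by a rule. For Cryab they were Use1, Fhl2 and Ankrd2 (r from 0.979 to 0.981), of which Ankrd2 encodes a stretch-responsive titin-binding protein of slow fibres. For Hspb1 they were Morf4l2, Akt1 and Cd81 (0.954 to 0.966), and for Hspb6 Uck2, Avpi1 and Gabarap (0.973 to 0.985), the last an autophagy protein. For Hspb8 they were Gm3272, Ets2 and Hmgb3 (0.948 to 0.961). The best match was weaker for Hspb3 (Brix1, 0.946), Bag3 (Man1c1, 0.922), Hspb2 (Zfp397, 0.916) and Hspb7 (Smpx, 0.91). These matches include the difference between groups, and most gave way to others once the group means were taken out. The closest genes were then Oaz2 for Cryab (0.949), Morf4l2 again for Hspb1 (0.973), Zfp397 again for Hspb2 (0.941) and the Y-linked Uty for Hspb3 (0.948). For Hspb6 it was Ubxn1 (0.959), for Hspb7 Ssbp4 (0.956), for Hspb8 Pef1 (0.924) and for Bag3 Zbtb2 (0.955).

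Among relatives outside the set, 6 of 9 other small heat shock and Bag family genes could be tested, and Cryaa, Hspb9 and Odf1 had 0 counts in every library. In the double knockout 2 of the 6 were higher and 1 lower, with a median log2 fold change of 0.18, where 13.0% of all tested genes were higher and 13.7% lower. Hspb11, which despite its name is an intraflagellar transport protein, rose from 4.49 ± 0.480 to 9.74 ± 2.33 CPM (log2 1.12, edgeR adjusted p = 0.00191). Bag1, an Hsp70 nucleotide exchange factor, rose by log2 0.53 (edgeR adjusted p = 0.0105), and Bag2, an inhibitor of the ubiquitin ligase Stub1, fell by 0.87 (edgeR adjusted p = 0.00438). In the Raptor knockout 2 were higher (Hspb11 0.96 and Bag1 0.46) and 0 lower, where 8.73% and 9.43% of all tested genes were, and Bag2 was at -0.39 (edgeR adjusted p = 0.215). Most alternative analyses left 1 or 0 of these Raptor-knockout calls, and Bag1 lay near the threshold (edgeR adjusted p = 0.0471).

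Of 20 partners of Bag3 in selective autophagy and related genes, all tested, 5 were higher and 7 lower in the double knockout, with a median of 0.00, where 13.0% and 13.7% of all tested genes were. The Raptor knockout had 4 higher and 5 lower, with a median of 0.04, where 8.73% and 9.43% of all tested genes were. Hspa8, the constitutive Hsp70 that Bag3 binds, rose from 784 ± 112 to 1480 ± 254 CPM (log2 0.92, edgeR adjusted p = 0.000175) in the double knockout. It rose by log2 0.64 in the Raptor knockout (edgeR adjusted p = 0.00755). The autophagosome protein gene Map1lc3b fell from 204 ± 31.0 to 114 ± 8.77 CPM in the double knockout (log2 -0.84, edgeR adjusted p = 0.000176), and by 0.96 in the Raptor knockout (edgeR adjusted p = 0.000258). Tsc1, a subunit of the complex that restrains mTOR complex 1 and a protein bound by the WW domain of Bag3, fell from 38.8 ± 5.91 to 20.7 ± 1.56 CPM (log2 -0.91, edgeR adjusted p = 0.000346), and by 0.89 in the Raptor knockout (edgeR adjusted p = 0.00151).

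Among 10 Z-disc, titin and intermediate filament genes whose products are clients or anchors of these chaperones, 5 were higher and 2 lower in the double knockout (median 0.32), and 6 and 2 in the Raptor knockout (median 0.48). Over all tested genes the shares were 13.0% higher and 13.7% lower, and 8.73% and 9.43%. Flnc, which encodes filamin C, the best known load of Bag3, rose from 135 ± 35.9 to 284 ± 63.8 CPM (log2 1.08, edgeR adjusted p = 0.00109) and by log2 1.12 in the Raptor knockout (edgeR adjusted p = 0.00212). Actn2, the Z-disc alpha-actinin, rose by log2 2.09 (edgeR adjusted p = 5.61e-05) and 2.16 (edgeR adjusted p = 0.000146). Synm, the intermediate filament protein synemin, was at -1.79 and -1.65, and Tcap, the titin cap, at -1.90 and -1.33 on the log2 scale, all with an edgeR adjusted p of at most 0.000515.

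Of 19 heat shock factors and other targets of heat shock factor 1, 18 were tested, and 7 were higher and 1 lower in the double knockout (median 0.38), against 4 and 2 in the Raptor knockout (median 0.09). Those counts stand beside 13.0% and 13.7%, and 8.73% and 9.43%, of all tested genes. The inducible Hsp70 gene Hspa1b rose from 3.44 ± 2.13 to 21.9 ± 8.62 CPM in the double knockout (log2 2.58, edgeR adjusted p = 0.00019) and by log2 1.84 in the Raptor knockout (edgeR adjusted p = 0.00651). Without wild-type replicate 3 these were 3.19 and 2.43, and with Xist as a covariate 1.96 and 2.41. Its near-identical copy Hspa1a rose by log2 2.40 (edgeR adjusted p = 0.00129) and 1.49 (edgeR adjusted p = 0.0432), and the division of reads between these copies is uncertain. The Raptor-knockout call of Hspa1a was lost in 9 of 23 alternatives. Its double-knockout value was 1.66 with Xist as a covariate and 1.24 in the libraries lacking Xist. Hsp90ab1, the constitutive Hsp90, rose by log2 0.66 (edgeR adjusted p = 0.00146) and 0.58 (edgeR adjusted p = 0.00874). Hsf1 itself was at -0.35 (edgeR adjusted p = 0.155) and -0.22 (edgeR adjusted p = 0.457). Hspa8, Hspa1a and Hspa1b stand in both this list and the one of Bag3 partners, and Flnc in both that list and the one of Z-disc genes. Among libraries lacking Xist only 1 double knockout was left, and the spread within its group could not be estimated. Double-knockout calls of the 4 related lists are therefore not given there, only effect sizes. The double-knockout log2 fold changes were then 1.70 for Actn2, 0.78 for Flnc, 0.45 for Bag1, 0.44 for Hsp90ab1 and -0.91 for Bag2.

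**Figure D5:**
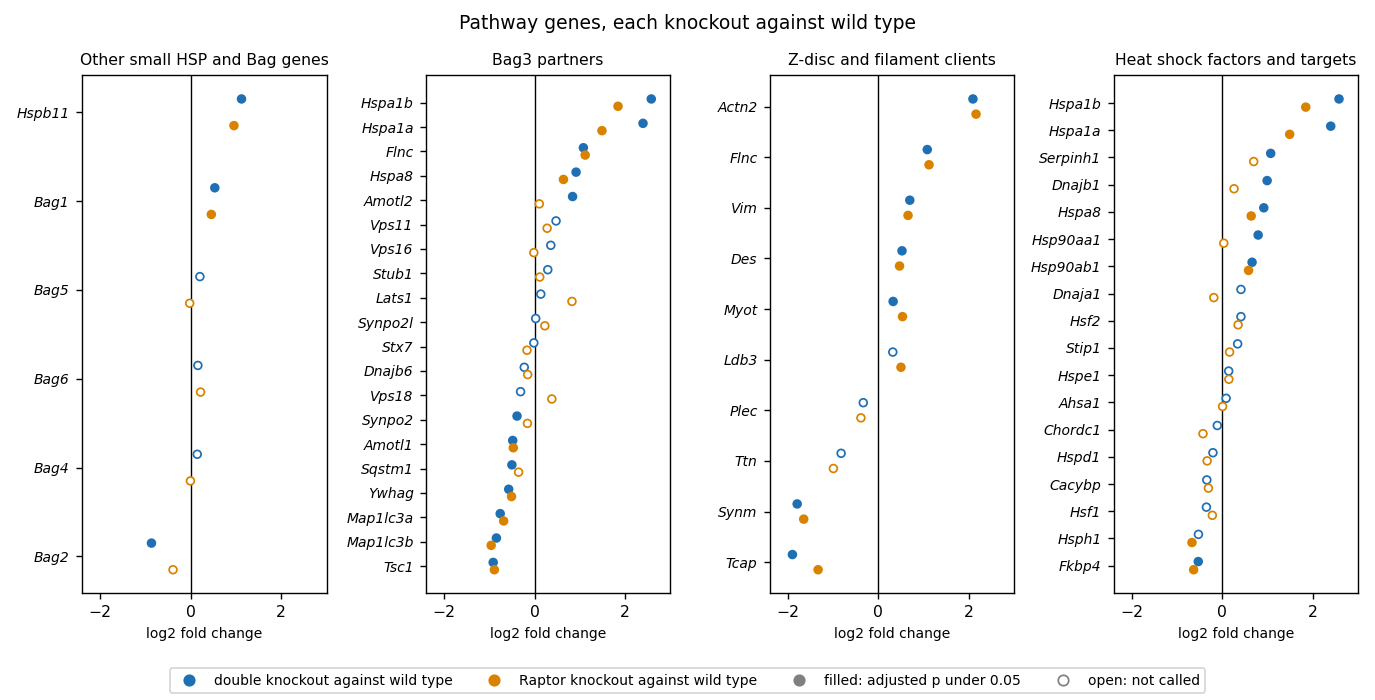
Log2 fold change of every tested gene of the 4 related lists in each knockout against wild type, filled where edgeR's adjusted p was under 0.05. Hspa1b lies highest among heat shock factor 1 targets, at 2.58 in the double knockout, and the partners of Bag3 lie on both sides of 0, with a median of 0.00 there.

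Library totals ran from 2791339 to 6328533 counts, and all 10 skeletal muscle markers were detected in every group, summing to 104385 to 109013 CPM in wild type and 86839.9 to 103471 CPM in the knockouts. Of these markers 2 were called higher and 5 lower in each knockout (median log2 -0.39 in the double and -0.31 in the Raptor knockout). Over all tested genes the shares were 13.0% and 13.7% in the double knockout, and 8.73% and 9.43% in the Raptor knockout. Rptor stood at 8.57 to 10.6 CPM in wild type, and it was lower in both knockouts, at 3.85 to 4.99 CPM with Raptor lost and 4.07 to 5.37 CPM with both lost. Mtor stood at 15.2 to 28.2 CPM in wild type and 31.8 to 39.5 in the double knockout, and because 3' tags need not lie in the deleted part it does not test the label. Double-knockout replicates 3 and 4 came from a smaller sequencing run with no other group in it. Without them Cryab, Hspb1, Hspb6 and Hspb8 were called against wild type and Hspb3 was not (edgeR adjusted p = 0.262). In that fit 8.78% of all 10764 tested genes were called higher in the double knockout, against 13.0% with all libraries.

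Other features of the muscle moved with the groups beside the chaperone genes. In bulk tissue, fewer cells of a type and less RNA per cell cannot be told apart. The marker calls below stand beside 8.73% of all tested genes called higher and 9.43% lower in the Raptor knockout. In the double knockout these shares were 13.0% and 13.7%. The summed level of 12 slow fibre markers was 842 to 1567 CPM in wild type and higher in every knockout library, at 2695 to 2949 CPM for Raptor and 1906 to 3272 CPM for both genes, with 9 and 10 of the 12 called higher. Its minimum and the minimum of Cryab fell in the same library in wild type (replicate 3) and in the double knockout (replicate 4). In the Raptor knockout the library with the lowest Cryab, replicate 3, had the highest sum, and in wild type the highest sum was in replicate 1 and the highest Cryab in replicate 4. The 12 regeneration markers summed to 484 to 775, 1201 to 1336 and 1692 to 2226 CPM in the same order of groups, with 7 of the 9 tested higher in each knockout, and Mymk, which drives myoblast fusion, was at 0 in all wild-type libraries. Fibroblast markers summed to 1048 to 1684, 1809.7 to 1921 and 2026 to 2264 CPM (3 and 8 of 10 higher), and macrophage markers to 74.4 to 135, 105 to 219 and 149.96 to 204 CPM (4 and 6 of 9 tested higher). Smooth muscle markers, a cell type that also expresses Cryab, Hspb1 and Hspb6, summed to 748 to 1111 CPM in wild type and to at most 602 CPM in either knockout, with 2 of 11 tested higher and 1 lower in each. Synm, counted among these markers and also among the filament genes above, alone stood at 437 to 831 CPM in wild type and 141 to 263 CPM in the knockouts. The smooth muscle markers as a set did not move as the sum did. Their median log2 fold change was 0.32 in the double knockout and 0.20 in the Raptor knockout, and their mean log2 level was 3.86 to 3.90 in wild type and 3.86 to 4.16 in the knockouts. Endothelial markers summed to 150.3 to 248, 166 to 199.5 and 149 to 187 CPM, adipocyte markers to 453 to 915, 543 to 766 and 489 to 1320.1 CPM, and blood markers to 1666 to 3363, 2177 to 10013.5 and 2612 to 3174 CPM in the same order of groups. The part of these cell types in the chaperone results was not tested.

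Xist, expressed from an inactive X chromosome and so a mark of female tissue, reached at most 0.291 CPM in 7 libraries and 95.6 to 208 CPM in the other 4, which were replicate 3 of wild type and replicates 1 to 3 of the double knockout. In the 7 libraries without it only 1 double knockout remained, which the fit assumed to vary like the others, so its calls are not given. In that fit of 11194 genes the double-knockout log2 fold change was 0.85 for Cryab, 0.68 for Hspb8, 0.48 for Hspb6, 0.46 for Hspb1 and 0.63 for Hspb3. Of the 5 Raptor-knockout calls, Cryab, Hspb7 and Hspb8 were called there, against 4.96% of all tested genes called higher. With Xist as a covariate in all 11 libraries, Cryab, Hspb3, Hspb6 and Hspb8 were called in both comparisons and Hspb1 lost its double-knockout call (log2 0.80, edgeR adjusted p = 0.0865). That fit called 8.26% of all tested genes higher in the double knockout and 8.77% in the Raptor knockout.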

How the data were processed

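The authors deposited expected counts per gene on GRCm38 (mm10). The submitters' processing notes name RSEM 1.3.3, STAR 2.7.0 and fastp 0.20.0. TPM per library was also deposited. Not given in the sources used here were the annotation release, any filters and whether strand was used. Positions come from GENCODE M21 and promoters from RefSeq. A further 6 columns that matched no sample label were not used.

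Counts were rounded (2.25% of values were not whole). Genes were filtered with filterByExpr, scaled by TMM and tested with edgeR 4.0.16 in R 4.3.3 (robust quasi-likelihood F test, two-sided, 11 libraries, 3 groups, no covariate). The SE is the log2 fold change over the square root of F. Alternatives were other size factors, filters, sample sets and covariates (run, Xist), DESeq2 1.42.0, and limma 3.58.1 on log2 of TPM plus 1 or 0.1 with a mean TPM of at least 1. Replicates were numbered in the order of the sample records. No pair of replicates repeated a library.

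On simulated data with 10505 genes, the double knockout against wild type recovered 100% of 4-fold, 66.7% of 2-fold and 9.23% of 1.5-fold changes. The Raptor knockout against wild type recovered 96.9%, 56.2% and 15.4%, and the double knockout against the Raptor knockout 98.5%, 67.7% and 10.8%. Only 66 or 67 genes were changed at each fold, and the spread of a gene was set by its mean level alone. The share of changed genes differed from the share called in the real data, so these recoveries need not hold there. Intervals from counts cover counting error only.

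The members, lists and tests were chosen with earlier results of these data known. All 8 members were named. Up to 4 genes of each related list were named by the smallest adjusted p in the double knockout, and the 3 genes closest to each member by Pearson's r of log2 CPM with a prior count of 2.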

Additional observations from a re-analysis of the deposited data

Results flagged for a closer look

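Of 16 sets of 4 libraries (8 genes in wild type and in the double knockout), 1 held a library far from the others, and chance alone marks about 1 in 20. Hspb3 stood at 36.33 CPM in double-knockout replicate 4, against 26.7 to 27.8 CPM in the other 3, a gap of 0.881 of the whole range. That library was the only double knockout without Xist and came from the smaller sequencing run. Without it the log2 fold change of Hspb3 against wild type was 0.32 (edgeR adjusted p = 0.149), no longer called.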

How the results depend on the processing

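Each comparison was repeated under 23 alternatives, 11 of them leaving out 1 library. In the double knockout against wild type the number of the 8 genes called was 4 to 7 against 5, and 4 to 6 on leaving out 1 library. The libraries without Xist are not in that range, because only 1 double knockout was left there. In the Raptor knockout the number was 5 to 7 against 5, with 5 to 7 on leaving out 1 library. In the libraries without Xist it was 3, where 4.96% of all tested genes were called higher. The share of all tested genes called higher moved with the setting too. With no filter on low counts it was 5.69% against 13.0% in the double knockout, and 3.77% against 8.73% in the Raptor knockout. With library totals it rose in both, as the counts below show. Between the knockouts the number of the 8 called was 0, and 0 to 0 on leaving out 1 library. Cryab, Hspb7 and Hspb8 kept the Raptor-knockout call in all 23 alternatives, and Cryab, Hspb6 and Hspb8 the double-knockout call in 22.

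None of the differences whose sign turned was called, and the cause was not tested. Among genes outside the set, Hspa1b turned from 0.73 to -0.45 and Hspa1a from 0.91 to -0.32 between the knockouts with Xist as a covariate. The lowest value of Hspa1a over all alternatives was -0.57. Smaller differences between the knockouts turned too: Actn2 ran from -0.22 to 0.33, Flnc from -0.32 to 0.14, Bag1 from -0.13 to 0.17 and Synm from -0.46 to 0.155. Tsc1 ran from -0.10 to 0.20, Map1lc3b from -0.048 to 0.18 and Hsp90ab1 from -0.039 to 0.17. Hspb2 in the double knockout was 0.17 with library totals, 0.097 and 0.099 with TPM at pseudocounts of 1 (with or without the filter) and 0.1, 0.00064 in libraries lacking Xist, and from -0.12 to 0.0079 (without wild-type replicate 1) on leaving out 1 library. In the Raptor knockout it was 0.11 with library totals. Between the knockouts Hspb2 was -0.015 and -0.0095 without Raptor-knockout replicate 1 or 3 and -0.0024 without double-knockout replicate 4. In the libraries without Xist, Hspb7 was -0.10 and Bag3 -0.089 in the double knockout, and between the knockouts Hspb1 was -0.21 and Hspb3 0.10. With Xist as a covariate Hspb3 was 0.075 and Hspb6 0.16 between the knockouts.

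Library totals moved the median of all genes by 0.228 in the double knockout and 0.197 in the Raptor knockout, and the calls of all genes from 1367 higher and 1435 lower to 2421 and 844, and from 917 and 991 to 1638 and 573. TPM moved those medians by 0.123 and 0.0904, with 1766 and 779, and 1031 and 519, called. The libraries without Xist gave 555 and 710 in the Raptor knockout. The log2 ratio of Cryab to Hspb2, under alternatives chosen after seeing the data, was 1.18 to 1.56 in the double knockout and 0.99 to 1.38 in the Raptor knockout on leaving out 1 library, where no p could fall under 0.05. With 18 to 70 counts a library, Hspb7 had the least depth. No paired analysis was possible because the labels give no replicate numbers that groups share.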
